A study of Mus musculus with 9 samples.

Results

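The 9 genes described here carry the LIF signal in mouse embryonic stem cells or are switched on by it: the receptor chains Lifr and Il6st, the kinase gene Jak1, the transcription factor gene Stat3, the target genes Socs3, Pim1, Pim3 and Gbx2, and the phosphatase gene Ptpn11. They were chosen by name for their place in the pathway, with earlier results of these data known, and make up 9 of the 35896 genes to which transcripts could be assigned. All 9 passed the filter on low counts. The series asks how mouse embryonic stem cells leave self-renewal when the Arp2/3 complex, which starts new actin branches, is inhibited. Poly-A RNA of E14, a single mouse embryonic stem cell line, was sequenced in 3 groups of 3 paired biological replicates. Cells of all groups grew in medium with serum on dishes coated with gelatin. Control +LIF2i cells were kept in self-renewal with the cytokine LIF, 1 µM of the MEK inhibitor PD0325901 and 1 µM of the glycogen synthase kinase-3β inhibitor CHIR99021. Control -LIF2i cells went without all 3 agents for 72 h. CK666 -LIF2i cells went without them for the same 72 h in 80 µM CK666, an Arp2/3 inhibitor added from a DMSO stock. LIF and both kinase inhibitors were removed together, so effects of the single agents cannot be told apart. Whether the controls also got this solvent is not stated in the labels, so drug and DMSO cannot be told apart either.

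LIF holds together a receptor of 2 chains, the LIF receptor and gp130, the product of Il6st. JAK kinases bound to the chains then phosphorylate STAT3, which pairs, enters the nucleus and binds DNA at palindromes of the form TTCNNNGAA, where N is any base. In mouse embryonic stem cells this signal is known to sustain self-renewal. SOCS3, made from a STAT3 target gene, binds gp130 and JAK and shuts the signal down, while the phosphatase SHP2, the product of Ptpn11, links the receptor to the RAS and MAP kinase branch.

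The libraries held 16894327 to 22550952 estimated counts. In replicate 1 of each group, 15637 to 17551 genes had a count above 0, against 18080 to 18636 in replicates 2 and 3. Levels between libraries are given as CPM, counts after scaling to a common library total, and on this scale 3 counts correspond to 0.142 to 0.182 CPM. All 8 genes fixed as markers of embryonic stem cell identity were above 1 CPM in some library. Their summed level was 4510 to 6756 CPM in +LIF2i libraries, 2276 to 2717 CPM in control -LIF2i libraries and 2587 to 3476 CPM with CK666, and 6 of the 8 fell on withdrawal while 1 rose, where 19.7% of all genes tested fell and 21.1% rose. Of 7 fibroblast or feeder markers 5 could be tested, and 4 of them rose on withdrawal. The sum of the 7 was 6.14 to 9.39, 29.4 to 33.0 and 17.4 to 26.7 CPM in the same order of groups, with Lum and Postn under 1 CPM in every library. Of it 3.46 to 5.11, 20.6 to 21.5 and 9.90 to 20.2 CPM were Thy1, and every other marker was at most 6.56 CPM. The sum of 6 endoderm markers was 10.6 to 14.3, 19.6 to 47.7 and 25.6 to 38.9 CPM, with Sox17, Foxa2 and Afp under 1 CPM throughout, and 1 of 4 tested rose. The sum of 4 trophoblast markers, with Cdx2 and Elf5 under 1 CPM, was 85.6 to 98.0, 4.29 to 8.20 and 7.58 to 16.0 CPM. Of it 85.5 to 97.1 CPM in +LIF2i libraries were Tfap2c, which fell on withdrawal, while Hand1, the other marker tested, was not called (log2 fold change 1.69, adjusted p = 0.174). The sum of 4 mesoderm markers, with Mesp1 under 1 CPM, was 6.92 to 14.8, 7.53 to 16.5 and 3.52 to 7.49 CPM, and 1 of 2 tested rose. This was Mixl1, at 0, 2 and 0 counts in +LIF2i libraries and 21, 8 and 20 in control -LIF2i libraries. Eomes, not called on withdrawal, was 6.86 to 14.8, 6.70 to 12.7 and 2.35 to 5.73 CPM of the sum. The sum of 4 neural markers was 114 to 248, 161 to 211 and 74.2 to 166 CPM, and on withdrawal Nes rose while Sox1 and Tubb3 fell. Nes was also the only one of the 25 markers tested that was called for CK666 against withdrawn controls (log2 fold change -1.24, adjusted p = 0.0307). No gene was called in that comparison without the replicate block or without replicate 3, so this call was lost in both fits. Whether these values reflect a change in cell makeup, and what part such a change would have in the results below, was not tested.

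Sequence of Socs3 and Stat3 is given first, since later values refer to it. The Socs3 stretch lies before the gene's start in RefSeq and is printed because Socs3 had the largest fold change of the 9 genes and was the only one of them with the STAT palindrome in its promoter window. RefSeq (GRCm38.p6) gives promoter windows of 250 bases before and 50 after a gene's start. All 9 genes had a window, 11 windows in all. TTCNNNGAA, which reads the same on both strands, was found once, in the Socs3 window, at chr11:117969512-117969520 on the minus strand, 154 to 146 bases upstream of the RefSeq start. The stretch around it, chr11:117969465-117969564 (GRCm38.p6, minus strand, 100 bases), lies upstream of the coding transcript Socs3-201. It is inside the span that GENCODE M21 gives the gene, in the intron of the noncoding transcript Socs3-202, which starts farther upstream. The capitals mark the match:
Socs3 upstream: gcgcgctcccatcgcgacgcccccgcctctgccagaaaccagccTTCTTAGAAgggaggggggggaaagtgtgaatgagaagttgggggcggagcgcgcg
The same letters stand in 2726 of all 32851 windows (8.30%), and binding of STAT3 to this match was not measured here. The stricter forms TTCCNNGAA or TTCNNGGAA, searched on both strands, are in 4.81% of windows and in none of the 9 genes' windows.

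The other sequences are the stretch where the coding sequences of 2 Stat3 transcripts part. They are printed because the gene makes proteins with different ends. Each transcript has its own estimated level, partly from reads that both share. Both span chr11:100889516-100889928 on the minus strand (GRCm38, GENCODE M21). They are spliced sequences of 118 and 68 bases, with the intron bases of this span left out. In Stat3-203, which encodes the full-length STAT3-alpha of 770 codons, the capitals mark 50 bases at chr11:100889541-100889590 that are missing from Stat3-202. Its coding sequence runs on past the stretch printed, where the final taa is out of frame. In Stat3-202, which encodes the shorter STAT3-beta of 722 codons, the capitals mark the stop codon that is reached without those bases:
Stat3-203: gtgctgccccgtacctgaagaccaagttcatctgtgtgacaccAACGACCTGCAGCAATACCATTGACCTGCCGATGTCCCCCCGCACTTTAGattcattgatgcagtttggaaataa
Stat3-202: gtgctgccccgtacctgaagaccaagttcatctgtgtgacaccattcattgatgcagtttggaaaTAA

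Withdrawal for 72 h lowered both receptor chains, Jak1, Stat3 and Socs3 and raised Ptpn11, while Pim1, Pim3 and Gbx2 did not pass the test. Thus 5 of the 9 genes fell and 1 rose, where 19.7% of the 14648 genes tested fell and 21.1% rose. The call of Jak1 held in 6 of 19 other fits and was lost without the replicate block (adjusted p = 0.174). These shares add up to 5967 genes, against 3746 without replicate 2 and 3099 without replicate 3. The median log2 fold change of the 9 genes was -1.20, that of all genes tested 0.01. The changes among the 5 ran from 1.27-fold for Jak1 to 14.7-fold for Socs3. In bulk RNA, fewer cells that express a gene and less of its RNA per cell cannot be told apart. Genes were called at an adjusted p under 0.05 in edgeR's quasi-likelihood test with the replicate number as a block, adjusted over all genes tested (Benjamini-Hochberg), and every adjusted p below is from that test unless another is named.

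In CK666 cells compared with withdrawn controls, Socs3 was the only one of the 9 genes called, a call that held in 6 of 19 other fits and was lost without the replicate block (adjusted p = 0.697). It was 1.69-fold lower with CK666, so 1 gene fell and 0 rose, where 0.894% of genes tested fell and 1.15% rose. The median log2 fold change of the 9 genes was 0.33, against 0.02 over all genes tested. At an unadjusted p under 0.05, 5 of the 9 genes and 2890 of the 14648 tested passed, and without the replicate block 2 of the 9 and 1251 in all. Over all genes the CK666 comparison called 300 genes, 1811 without replicate 1, 8 without replicate 2 and 0 without replicate 3, where 1360 genes had an unadjusted p under 0.05. Leaving out control -LIF2i replicate 1, 2 or 3 gave 152, 5 or 4 calls, and leaving out CK666 replicate 1, 2 or 3 gave 406, 2 or 30. Against +LIF2i cells, the CK666 cells had 4 of the 9 genes lower and 1 higher, where 17.1% of genes tested were lower and 19.8% higher. These shares add up to 5408 genes, against 3336 without replicate 2, 2413 without replicate 3 and 3544 without CK666 replicate 3 alone. Their median was -0.09, against 0.01 over all genes. The 3 comparisons share libraries in pairs, so their values are set side by side and are not independent of each other.

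**Figure D1:**
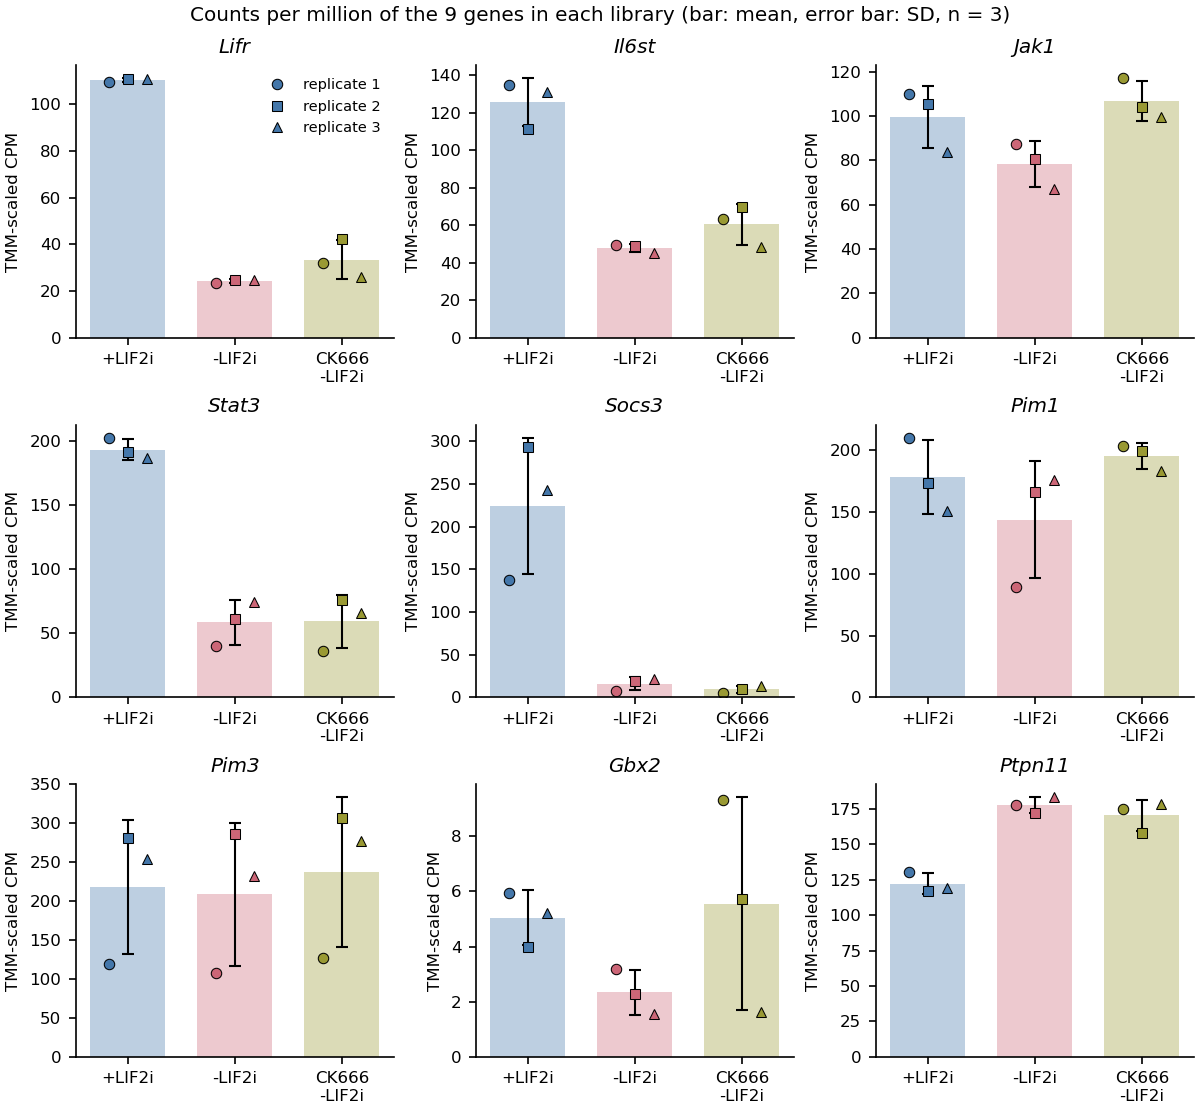
TMM-scaled CPM of the 9 genes (vertical axes, linear, from 0) in the 3 groups. Points are single libraries with a symbol for each replicate number, bars are means and error bars SD (n = 3). Lifr lies at 109.5 to 111 CPM in +LIF2i libraries and at 23.3 to 24.9 CPM in control -LIF2i libraries, and replicate 1 of Pim3 lies below replicates 2 and 3 in every group.

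Lifr (ENSMUSG00000054263, chr15:7090614-7197489, plus strand, GRCm38) encodes the chain that binds LIF. Its level was 109.5, 111 and 111 CPM in +LIF2i replicates 1, 2 and 3. It was 23.3, 24.6 and 24.9 CPM in control -LIF2i libraries and 32.1, 42.4 and 26.0 CPM with CK666. The +LIF2i libraries lay within 2 CPM of each other, and no library of either withdrawn group came near them. Every CK666 library was above every control -LIF2i library, the third replicate by the smallest margin. On withdrawal Lifr fell 4.55-fold, with a log2 fold change of -2.19 (SE 0.16, 95% interval -2.55 to -1.82, adjusted p = 1.6e-05), lower in 3 of 3 pairs. With CK666 the difference from withdrawn controls was 0.45 on the log2 scale (SE 0.16, 95% interval 0.09 to 0.80) and was not called (adjusted p = 0.161). CK666 cells remained below +LIF2i cells, at a log2 fold change of -1.74 (SE 0.16, adjusted p = 6.0e-05). The withdrawal call held in all 19 other fits, with log2 fold changes from -2.29 to -1.75.

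Il6st (ENSMUSG00000021756, chr13:112464070-112510086, plus strand) encodes gp130, the chain shared with the receptors of interleukin 6 and its relatives. Its level was 135, 111 and 131 CPM in +LIF2i libraries, 49.6, 48.7 and 45.2 CPM in control -LIF2i libraries and 63.4, 69.6 and 48.5 CPM with CK666. The +LIF2i libraries stood above all others, while the third CK666 library lay among the withdrawn controls. Il6st fell 2.64-fold on withdrawal, a log2 fold change of -1.40 (SE 0.15, 95% interval -1.73 to -1.07, adjusted p = 0.000106), lower in 3 of 3 pairs and called in all 19 other fits. The CK666 difference was 0.33 (SE 0.14, 95% interval 0.01 to 0.66, adjusted p = 0.244), higher in 3 of 3 pairs and not called.

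The receptor chains were also set against each other within each library. The counts of Lifr were 0.813, 0.996 and 0.845 of those of Il6st in +LIF2i libraries and 0.470, 0.505 and 0.552 in control -LIF2i libraries. These groups did not overlap, the mean log2 ratio differed by -0.79, and an exact 2-sided permutation test gave p = 0.1, the smallest that 3 against 3 libraries allow (adjusted p = 0.2 over 4 ratio tests). With CK666 the ratio was 0.506, 0.608 and 0.535, which overlapped the withdrawn controls (log2 difference 0.11, exact permutation p = 0.4, adjusted p = 0.4).

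Transcripts of Lifr also come in forms. Those with 1092 codons encode the receptor that spans the membrane, and those with 719 codons a form without the membrane-spanning part, known in the mouse as a soluble receptor. TPM, used here because it corrects for transcript length, was 19.6 ± 4.39 (SD, n = 3) for the long form in +LIF2i libraries, 4.58 ± 0.629 in control -LIF2i libraries and 6.12 ± 1.94 with CK666. The short form had 2.35 ± 1.74, 0.951 ± 0.600 and 1.05 ± 0.838 TPM in the same order. It made up 14.6%, 10.7% and 4.43% of both forms in +LIF2i replicates 1, 2 and 3, 21.7%, 21.9% and 5.91% in control -LIF2i libraries and 23.7%, 9.38% and 8.12% with CK666. The groups overlapped, and replicates of one group differed more than the group means. No test was made on transcripts, because estimates for transcripts of 1 gene share reads.

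Jak1 (ENSMUSG00000028530, chr4:101152367-101265282, minus strand), the kinase bound to gp130, changed least among the 5 genes that fell. Its level was 109.8, 106 and 83.7 CPM in +LIF2i libraries, 87.2, 80.6 and 67.2 CPM in control -LIF2i libraries and 117, 104 and 99.3 CPM with CK666. Within each replicate number the control -LIF2i library was the lowest of the 3, although the first control -LIF2i library lay above the third +LIF2i library. The log2 fold change on withdrawal was -0.35 (SE 0.11, 95% interval -0.59 to -0.11, adjusted p = 0.0265). The call held in only 6 of 19 other fits. Besides the fit without the block, fits that lost it included those without +LIF2i replicate 2 (0.121) or 3 (0.0591) and without control -LIF2i replicate 1 (0.0845), 2 (0.0886) or 3 (0.121). Those without the whole of replicate 2 (0.182) or 3 (0.16) lost it too, each value an adjusted p. Not all fits that lost the call are listed. With CK666 the log2 difference from withdrawn controls was 0.45 (SE 0.11, 95% interval 0.22 to 0.69, adjusted p = 0.0605), with all CK666 libraries above all control -LIF2i libraries. This was not called, but was called in 4 of 19 other fits, among them DESeq2 (adjusted p = 0.016) and the edgeR fit without replicate 1 (adjusted p = 0.036). CK666 and +LIF2i cells differed by 0.11 (95% interval -0.13 to 0.34, adjusted p = 0.464).

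Stat3 (ENSMUSG00000004040, chr11:100885098-100939540, minus strand) encodes the transcription factor that the kinases activate. Its level was 202, 191 and 186 CPM in +LIF2i libraries. It was 39.8, 61.0 and 74.2 CPM in control -LIF2i libraries and 36.0, 75.6 and 65.7 CPM with CK666. The withdrawn groups covered about the same range, with replicate 1 the lowest in both, and both lay far below the +LIF2i libraries. Stat3 fell 3.47-fold on withdrawal, a log2 fold change of -1.80 (SE 0.22, 95% interval -2.29 to -1.30, adjusted p = 0.000254), lower in 3 of 3 pairs and called in all 19 other fits. The CK666 difference from withdrawn controls was 0.01 (SE 0.21, 95% interval -0.48 to 0.49, adjusted p = 0.992). Of the exonic bases of Stat3, 0.756% are shared with Stat5a on the opposite strand.

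Most Stat3 coding RNA was of the form with 770 codons, printed above as Stat3-203. It had 49.2 ± 4.24 TPM (SD, n = 3) in +LIF2i libraries, 16.7 ± 3.56 in control -LIF2i libraries and 15.6 ± 5.41 with CK666. Stat3-201, which lacks 3 coding bases of Stat3-203, had 15.5 ± 12.4, 1.83 ± 1.03 and 3.29 ± 0.911 TPM, and its first +LIF2i library, at 29.7 TPM, stood apart from the second and the third at 6.80 and 10.0 TPM. The beta form Stat3-202, whose shortened end is printed above, was rare in every group. It had 2.43, 0.877 and 0.537 TPM in +LIF2i replicates 1, 2 and 3, 0.201, 0.263 and 0.249 TPM in control -LIF2i libraries and 0.406, 0.308 and 0.190 TPM with CK666. As a share of the coding TPM of these forms it averaged 1.79%, 1.29% and 1.81% in these groups, and ranged over single libraries from 0.879% to 3.24%, both in the CK666 group. Each of the 3 forms had a lower mean TPM after withdrawal, and the mean beta shares of any pair of groups differed by less than the larger SD of the pair.

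**Figure D2:**
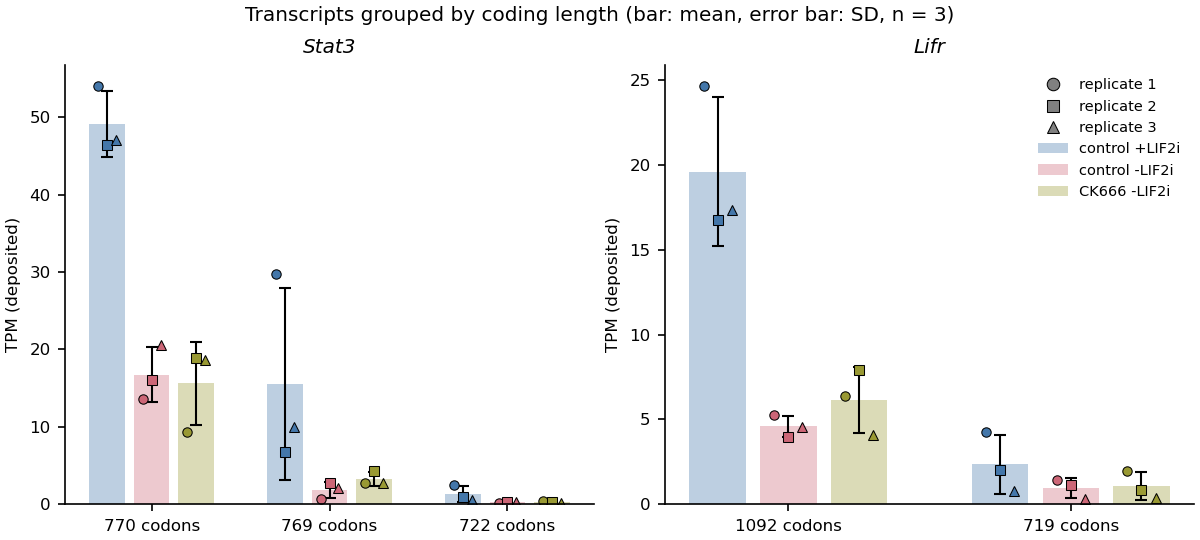
TPM of transcripts of Stat3 (left) and Lifr (right) grouped by the number of codons (horizontal axis), for the 3 groups. Points are libraries, bars means, error bars SD (n = 3), with vertical axes linear from 0. The 770-codon form of Stat3 falls from 49.2 to 16.7 TPM and the 1092-codon form of Lifr from 19.6 to 4.58 TPM on withdrawal, while the 722-codon form of Stat3 stays under 3 TPM in all libraries.

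Socs3 (ENSMUSG00000053113, chr11:117966079-117970047, minus strand), the feedback inhibitor whose upstream stretch is printed above, changed most. Its level was 137, 294 and 243 CPM in +LIF2i libraries, 7.67, 18.5 and 21.6 CPM in control -LIF2i libraries and 4.93, 10.1 and 12.8 CPM with CK666. Each +LIF2i library was above 100 CPM and no withdrawn library reached 25 CPM. Socs3 fell 14.7-fold on withdrawal, a log2 fold change of -3.88 (SE 0.17, 95% interval -4.25 to -3.51, adjusted p = 1.59e-06), lower in 3 of 3 pairs and called in all 19 other fits. From +LIF2i cells to CK666 cells it differed by -4.64 (SE 0.17), or 24.9-fold.

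With CK666 Socs3 was lower than in withdrawn controls by a log2 fold change of -0.76 (SE 0.16, 95% interval -1.12 to -0.40, adjusted p = 0.0469). Within replicates 1, 2 and 3 the CK666 library was lower each time, but the groups overlapped, since the first withdrawn control at 7.67 CPM lay below CK666 replicates 2 and 3. The call held in 6 of 19 other fits, all of the same direction. It was lost without the block (-0.78, adjusted p = 0.697). It was lost when any 1 of the 6 withdrawn libraries was left out: control -LIF2i replicate 1 (adjusted p = 0.0648), 2 (0.184) or 3 (0.26), and CK666 replicate 1 (0.0814), 2 (0.262) or 3 (0.127). When counts were corrected for the deposited effective lengths, the log2 fold change was -0.36 (adjusted p = 0.607). In TPM, Socs3-201, the coding transcript, was at 5.29, 10.4 and 12.3 in control -LIF2i libraries and 3.13, 5.59 and 7.32 with CK666. In the first CK666 library another 5.32 TPM were assigned to Socs3-203, a noncoding transcript of 246 bases, which was at 0 TPM in the other CK666 libraries.

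Counts of Socs3 were 0.677, 1.54 and 1.30 times those of Stat3 in +LIF2i libraries, 0.193, 0.304 and 0.292 times in control -LIF2i libraries and 0.137, 0.134 and 0.195 times with CK666. Every control -LIF2i library was below every +LIF2i library in this ratio, with a log2 difference of -2.10 (exact permutation p = 0.1, adjusted p = 0.2). The CK666 and control -LIF2i libraries differed by -0.75 and overlapped by 1 library of each group, the third CK666 library at 0.195 and the first control at 0.193 (exact permutation p = 0.2, adjusted p = 0.267). Within replicates 1, 2 and 3 the CK666 ratio was lower in 3 of 3 pairs. The permutation tests of ratios treated the libraries as unpaired.

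Pim1 (ENSMUSG00000024014, chr17:29490753-29496112, plus strand) encodes a serine/threonine kinase that promotes survival. Its level was 210.1, 174 and 151 CPM in +LIF2i libraries, 89.6, 166 and 176 CPM in control -LIF2i libraries and 203, 199 and 183 CPM with CK666. The first control -LIF2i library was the lowest of all 9, and the remaining withdrawn controls lay within the +LIF2i range. The log2 fold change on withdrawal was -0.33 (SE 0.24, 95% interval -0.87 to 0.21, adjusted p = 0.305). It was 0.05 without that 1 library and 0.10 without replicate 1. All CK666 libraries lay above all control -LIF2i libraries, and the difference of 0.46 (SE 0.24, 95% interval -0.08 to 0.99, adjusted p = 0.328) was not called. Of the exonic bases of Pim1, 14.5% are shared with the antisense gene Gm26885. The library kit named in the labels does not mark strand, so reads of this stretch cannot be assigned to one strand.

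Pim3 (ENSMUSG00000035828, chr15:88862186-88865726, plus strand), a gene of the same family that encodes a serine/threonine kinase, was called in none of the 3 comparisons and differed between replicates. Its level was 119.7, 282 and 253 CPM in +LIF2i libraries, 107, 286 and 233 CPM in control -LIF2i libraries and 127, 307 and 277 CPM with CK666. Within each replicate number the groups lay close together, and replicate 1 was the lowest in every group. The mean of replicates 2 and 3 was 2.24, 2.42 and 2.29 times replicate 1 in the 3 groups. The log2 fold change was -0.09 on withdrawal (SE 0.10, 95% interval -0.31 to 0.14, adjusted p = 0.538) and 0.20 for CK666 against withdrawn controls (SE 0.10, 95% interval -0.03 to 0.43, adjusted p = 0.315). Socs3 differed between replicates in the same way, by 1.95, 2.62 and 2.33 times, whereas Lifr differed by 1.01 to 1.06 times. The cause of this difference between replicates was not tested.

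Gbx2 (ENSMUSG00000034486, chr1:89927956-89931179, minus strand) encodes a homeobox transcription factor, a STAT3 target that can hold mouse embryonic stem cells in self-renewal when overexpressed. It was the least abundant of the 9 genes. Its level was 5.95, 3.97 and 5.22 CPM in +LIF2i libraries, 3.18, 2.28 and 1.57 CPM in control -LIF2i libraries and 9.34, 5.72 and 1.62 CPM with CK666, from 29 to 197 counts per library. The control -LIF2i libraries lay below all +LIF2i libraries, while the CK666 libraries spread from near the lowest of these levels to above the highest. The withdrawal log2 fold change of -1.20 (SE 0.45, 95% interval -2.20 to -0.20, adjusted p = 0.0569) was not called. It was called in 3 of 19 other fits, among them DESeq2 (adjusted p = 0.0287) and edgeR without +LIF2i replicate 1 (adjusted p = 0.0291). The CK666 difference of 1.11 (SE 0.44, 95% interval 0.11 to 2.11, adjusted p = 0.205), higher in 3 of 3 pairs, was not called. In replicate 3 both libraries had 29 counts, so that pair differed only after scaling. Of its exonic bases 43.5% are shared with D130058E05Rik on the opposite strand, which was not analysed here, so its counts may include reads of that gene.

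Ptpn11 (ENSMUSG00000043733, chr5:121130533-121191397, minus strand) encodes the phosphatase SHP2 and was the gene that rose. Its level was 131, 117 and 119 CPM in +LIF2i libraries, 178, 172 and 183 CPM in control -LIF2i libraries and 175, 158 and 179 CPM with CK666. Every withdrawn library, with or without CK666, was above every +LIF2i library. Ptpn11 rose 1.46-fold on withdrawal, a log2 fold change of 0.54 (SE 0.10, 95% interval 0.32 to 0.77, adjusted p = 0.00246), and was called in 17 of 19 other fits. It was lost without replicate 3 (adjusted p = 0.062) and in the limma fit on log2(TPM + 0.5), where the log2 fold change was 0.37 (adjusted p = 0.0743). With counts corrected for effective length it was 0.35 (adjusted p = 0.0418). The CK666 difference from withdrawn controls was -0.06 (SE 0.10, 95% interval -0.29 to 0.16, adjusted p = 0.791). CK666 cells were above +LIF2i cells by 0.48 (SE 0.10, adjusted p = 0.00527), a call that held in 15 of 19 other fits. It was lost without replicate 2 (adjusted p = 0.0623) or 3 (adjusted p = 0.112), with length correction (log2 fold change 0.27, adjusted p = 0.103) and in the TPM fit (0.27, adjusted p = 0.18). The transcript with 593 codons had 18.5 ± 0.964 TPM (SD, n = 3) in +LIF2i libraries, 34.6 ± 2.70 in control -LIF2i libraries and 33.3 ± 5.02 with CK666, with no overlap between +LIF2i and withdrawn libraries. The transcript with 597 codons had 11.7 ± 8.18, 10.7 ± 2.51 and 9.63 ± 0.940 TPM, and its groups overlapped.

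**Figure D3:**
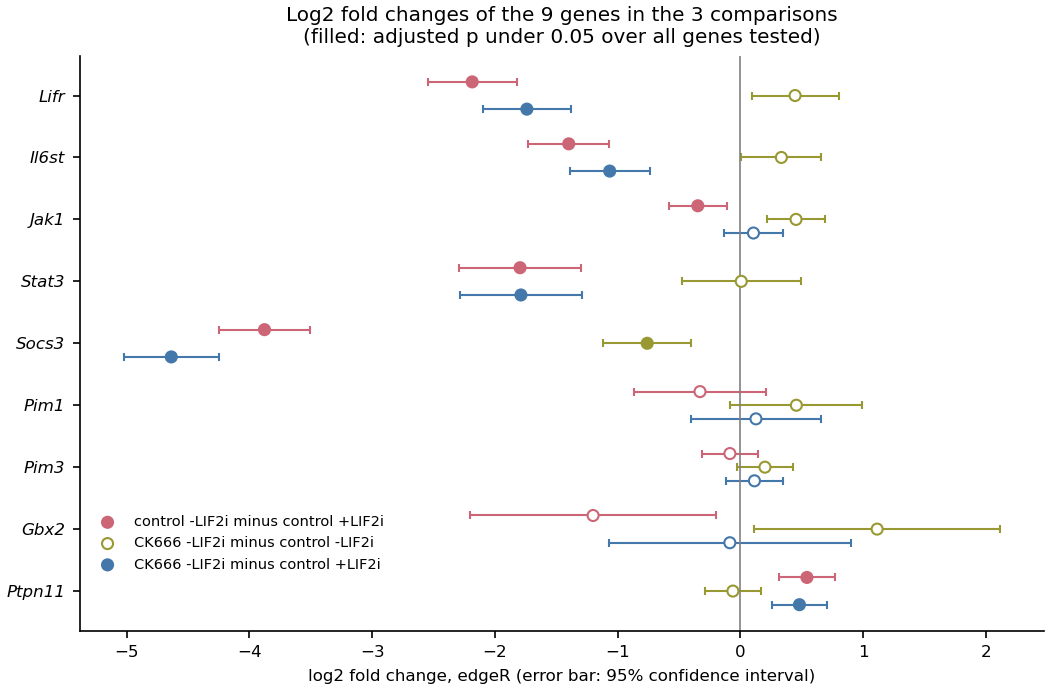
Log2 fold changes from edgeR (horizontal axis) of the 9 genes in 3 comparisons, with 95% confidence intervals as error bars. Filled points have an adjusted p under 0.05 over all genes tested. Socs3 lies farthest from 0, at -3.88 on withdrawal and -4.64 for CK666 against +LIF2i cells, and is the only filled point in the comparison of CK666 with withdrawn controls.

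The order of the genes by level changed between the groups. In +LIF2i libraries mean TPM was highest for Pim3 (147), Socs3 (134), Pim1 (111) and Stat3 (89.6), neighbours that did not differ by more than the larger SD of each pair. Ptpn11 (46.0), Il6st (32.8) and Jak1 (31.9) followed, again within their spread, then Lifr (23.01) and Gbx2 (3.76), each apart from its neighbour above. In control -LIF2i libraries Pim3 (132) and Pim1 (91.7) led within their spread. Below them stood Ptpn11 (58.3), then Jak1 (27.0) beside Stat3 (25.5), and then Il6st (13.1), Socs3 (10.5) and Lifr (6.52), each of these within the spread of its neighbour, with Gbx2 last at 1.79. With CK666 the order was Pim3 (151), Pim1 (123), Ptpn11 (54.0), Jak1 (36.1), Stat3 (26.2), Il6st (15.4), Lifr (10.1), Socs3 (7.65) and Gbx2 (4.16), where Pim3 and Pim1, and Lifr and Socs3, did not differ beyond their spread. Socs3 moved from the second place to the seventh and the eighth, while Pim3 stayed first. TPM in the first replicates also counts short transcripts assigned there and not in the others, such as Pim3-202, a noncoding transcript at 54.0 TPM in the first +LIF2i library and 0 in the others of that group.

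Among 50 other genes of the pathway, 48 could be tested, since Il6 and Osmr did not pass the filter. On withdrawal 16 fell, 8 rose and 24 were not called, with a median log2 fold change of -0.23 against 0.01 over all genes, of which 19.7% fell and 21.1% rose. Without replicate 3 the calls numbered 12 in all, and without control -LIF2i replicate 3 alone 15. In CK666 cells against withdrawn controls 0 of the 48 were called by edgeR, where 2.05% of all genes were called, with a median of 0.08. At an unadjusted p under 0.05, 14 of the 48 passed, beside the 2890 of all genes given above. In that comparison limma-voom and the length-corrected fit each called 1, DESeq2 3, the fit of both groups alone 6, and the edgeR fit without replicate 1 called 7. Leaving out the first control -LIF2i or the first CK666 library alone gave 1 call. In CK666 against +LIF2i cells 12 were lower and 5 higher (median -0.02), where 17.1% of all genes were lower and 19.8% higher, and the calls numbered 10 without replicate 2 or 3 and 11 without +LIF2i replicate 3. Of the 26 genes called in any comparison, the 20 with the smallest adjusted p are named below. Of these 10 share exonic bases with another gene, 26.7% in Stat4 and 1.38% to 9.50% in the others.

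Of 6 ligand genes tested, 1 fell and 1 rose on withdrawal, where 19.7% of all genes fell and 21.1% rose. Osm, oncostatin M, was at 56, 53 and 27 counts in +LIF2i libraries and at 0 to 2 in control -LIF2i libraries, and Clcf1, a cytokine that acts through the CNTF receptor, at 0, 6 and 3 counts against 16, 33 and 30. Lif itself, at 3.34 to 5.02 CPM with LIF2i and 4.44 to 8.26 CPM after withdrawal, did not pass the test (log2 fold change 0.68, adjusted p = 0.0819). Of 4 other receptor chains, Il6ra, the chain that binds interleukin 6, fell from 17.5, 8.36 and 6.14 CPM to 1.98, 1.40 and 2.43 CPM (log2 fold change -2.33, adjusted p = 0.00192). Cntfr, the chain that binds ciliary neurotrophic factor and works with LIFR and gp130, rose from 1.52, 2.41 and 0.972 CPM to 27.0, 11.6 and 19.6 CPM, a log2 fold change of 3.44 (SE 0.43, adjusted p = 0.000318). In CK666 libraries Cntfr was at 49.0, 19.6 and 46.2 CPM, higher than its paired control in 3 of 3 pairs but not called (log2 fold change 0.97, adjusted p = 0.178). The other chains tested, Il11ra1 (log2 fold change 0.15, adjusted p = 0.672) and Il27ra (-0.46, adjusted p = 0.53), were not called on withdrawal.

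Of the other kinase genes, Jak3 and Tyk2 fell on withdrawal and Jak2 was not called. Jak3, known mainly from lymphoid cells, was at 46.2, 96.2 and 104 CPM in +LIF2i libraries and 8.11, 11.6 and 15.4 CPM in control -LIF2i libraries (log2 fold change -2.77, adjusted p = 1.62e-05). Tyk2 fell from 59.7 ± 2.50 to 27.7 ± 5.10 CPM (SD, n = 3; edgeR adjusted p = 0.000322). Of 6 other STAT genes 3 fell and 0 rose, with a median log2 fold change of -0.51, beside the same shares over all genes of 19.7% fallen and 21.1% risen. Stat2 changed by -0.80 (adjusted p = 0.0134) and Stat4 by -1.23 (adjusted p = 0.0164), against -1.80 for Stat3.

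Of 14 inhibitor genes 2 rose, 2 fell and 10 were not called on withdrawal, with a median of -0.14, where 21.1% of all genes rose and 19.7% fell. Socs1, a relative of Socs3 that inhibits JAK kinases, rose from 2.56 ± 1.09 to 7.18 ± 3.70 CPM (SD, n = 3; log2 fold change 1.42, edgeR adjusted p = 0.0141), the direction opposite to Socs3. Ptpn6, which encodes the phosphatase SHP1, fell by 0.85 on the log2 scale, where its relative Ptpn11 rose. Pias2, of a family of STAT inhibitors, fell by 0.56. Among 7 adaptor genes of the PI3K and RAS branch 2 rose and 2 fell, beside the same shares over all genes, with Shc1, a receptor adaptor, at 0.74, Gab1, a docking protein bound by SHP2, at -0.46, and Pik3r1, the regulatory subunit of PI3K, at -0.80.

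Of 8 other genes known as STAT3 targets, 5 fell, 2 rose and 1 was not called on withdrawal, where 19.7% of all genes fell and 21.1% rose, with a median of -1.52. Klf4, a pluripotency factor, was at 348, 167 and 249 CPM in +LIF2i libraries and 3.62, 3.63 and 6.10 CPM in control -LIF2i libraries, a log2 fold change of -5.80 (SE 0.33, adjusted p = 5.72e-06). Tfcp2l1, a transcription factor of the naive state, fell from 1385, 522 and 584 CPM to 12.1, 20.6 and 16.0 CPM (log2 fold change -5.68, adjusted p = 0.000284). With CK666 Tfcp2l1 was at 29.4, 74.7 and 28.4 CPM, each library above all withdrawn controls, and the difference was not called (log2 fold change 1.37, adjusted p = 0.187). Klf5, a relative of Klf4, changed by -2.74, Bcl3, a coactivator of NF-kB, by -3.06 and Sall4, a zinc-finger factor of embryonic stem cells, by -0.31. Myc, which drives growth and is also known as a target of many other signals, went the other way, from 4.08, 0.784 and 2.19 CPM to 52.3, 13.8 and 49.2 CPM (log2 fold change 4.15, adjusted p = 3.68e-05). With CK666 Myc was at 41.3, 5.61 and 10.2 CPM, lower than its paired control in 3 of 3 pairs and not called (log2 fold change -1.28, adjusted p = 0.0636). Junb, which encodes a subunit of the AP-1 transcription factor, was the other target that rose (log2 fold change 0.78, adjusted p = 0.045), and Pim2 was the one not called. Junb was at 11.2, 29.5 and 23.6 CPM in +LIF2i libraries and 14.8, 33.2 and 78.8 CPM in control -LIF2i libraries. These groups overlapped, and the difference was largest in replicate 3.

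**Figure D4:**
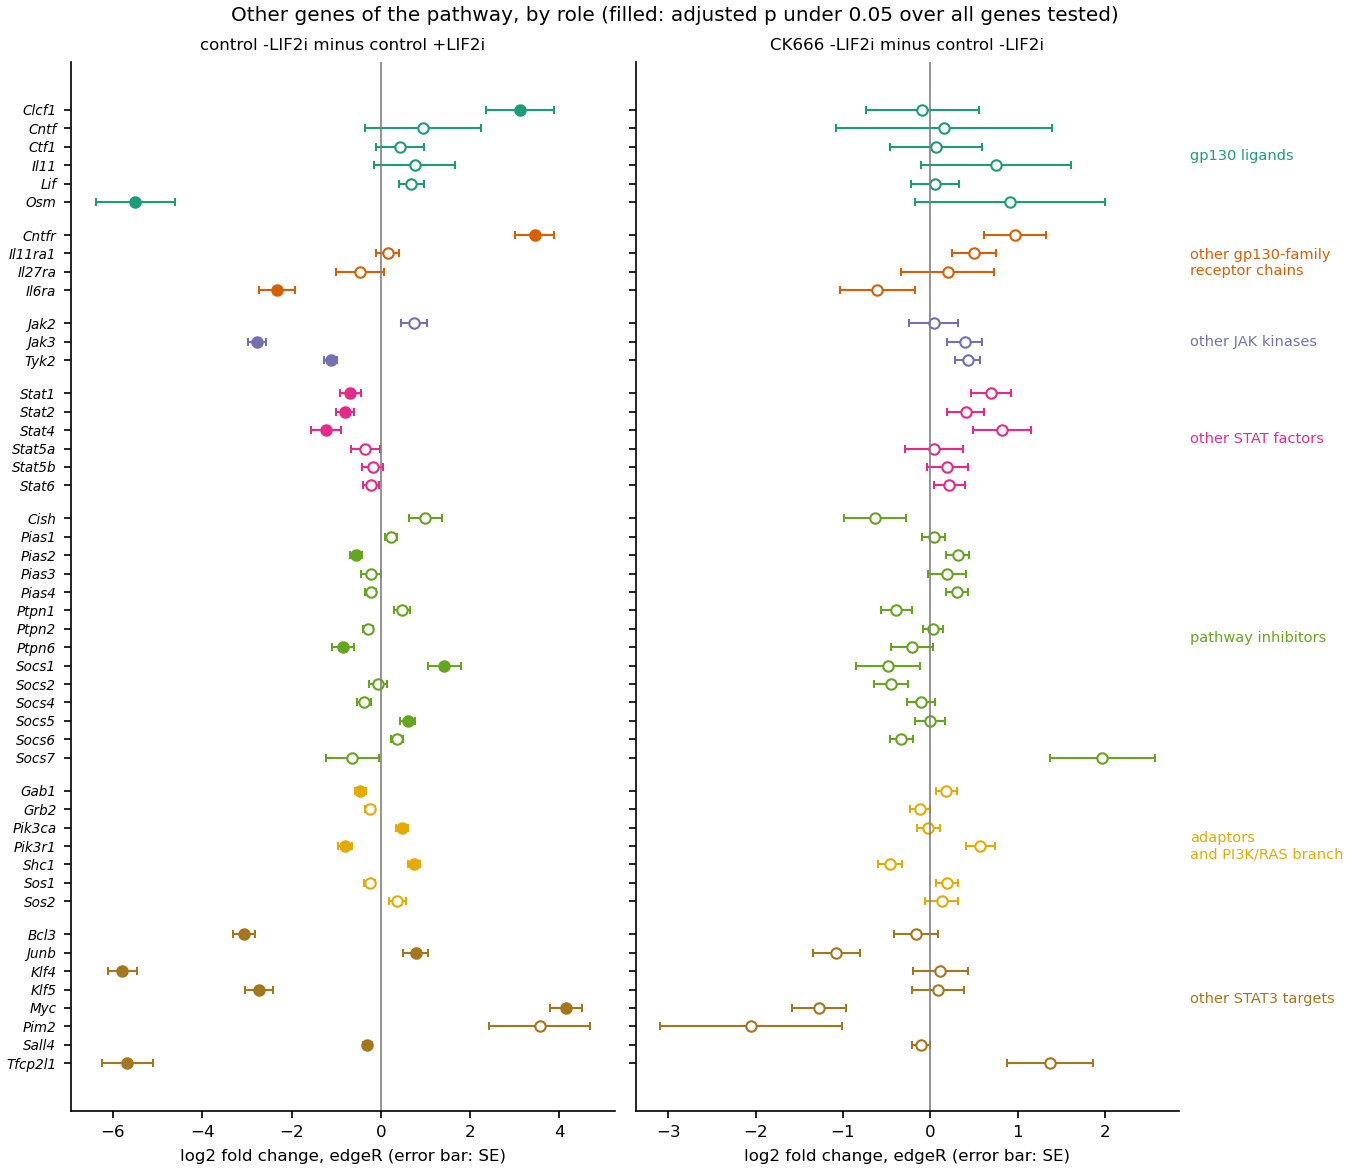
Log2 fold changes from edgeR (horizontal axes) of the 48 other pathway genes tested, grouped by role, on withdrawal (left) and for CK666 against withdrawn controls (right). Error bars are SE, and filled points have an adjusted p under 0.05 over all genes tested. Klf4 at -5.80 and Myc at 4.15 mark the ends of the left panel, and no point is filled on the right.

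The genes whose levels followed Socs3 and Lifr most closely over the 9 libraries were found among 9490 genes whose log2 CPM averaged 3 or more, by Pearson's r of log2 CPM. The 9 libraries fall into groups and share replicate effects, so r is a description only. For Socs3 they were Mgarp (r = 0.990), Pcolce (0.983) and Litaf (0.982). Pcolce had mean levels of 129, 13.8 and 9.63 CPM in +LIF2i, control -LIF2i and CK666 libraries, and Mgarp 32.9, 6.10 and 4.56 CPM. For Lifr they were Slc25a12, Esrrb and Laptm5 (each r = 0.990). Esrrb, which encodes an orphan nuclear receptor of the naive pluripotent state, had means of 879, 29.9 and 75.3 CPM, and Laptm5 120.4, 4.29 and 9.52 CPM. None of these genes was called for CK666 against withdrawn controls, and a group order like that of Socs3 or Lifr follows from the choice by r.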

How the data were processed

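Each of the 9 deposited tables lists 119414 transcripts and, per the file headers, their lengths, effective lengths, estimated counts and TPM. The deposited estimated counts are unnormalized, and they can be fractions where a read fits more than 1 transcript. The TPM values as deposited are divided by effective length and scaled to a fixed sum per library. The submitters' processing notes name FastQC, cutadapt 1.8.1, kallisto and sleuth, and list the builds GRCh38 and mm10 without a role. The transcript release and the strand setting of the counting are not given in the sources used here.

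The annotation GENCODE M21 (GRCm38) gave a gene for 116640 transcripts (97.7%), matched on the Ensembl identifier. The rest held 0.895% to 1.08% of a library's counts and were left out. Estimated counts were summed per gene and rounded to whole numbers. The expression filter of edgeR 4.0.16 (run in R 4.3.3) left 14648 genes, which were scaled by TMM and tested with its robust quasi-likelihood fit. One fit of all 9 libraries held the replicate number as a block, with 4 residual degrees of freedom. The study's design text calls the replicates paired. Deviations from group means had a median r of 0.41 between libraries of the same number (0.30 to 0.65 over 9 pairs). Between different numbers the median was -0.37 (-0.53 to 0.29 over 18 pairs). Standard errors came from the test statistic. DESeq2 1.42.0 and limma 3.58.1 were alternatives. Only the edgeR fit of the withdrawal comparison, with and without the block, was run on simulated counts, and the outcome is not given here. Coding transcripts of 1 gene were grouped by coding length, keeping lengths with a mean of at least 0.5 TPM. Ratios within libraries were compared by exact permutation.

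The 9 genes, the 50 other pathway genes and the marker lists were chosen with earlier results of these data known. All 9 genes are named. Of the pathway genes, the 20 with the smallest adjusted p among those called are named, and for Socs3 and Lifr the 3 protein-coding genes with the highest r over the 9 libraries. Lif, Junb, Il11ra1, Il27ra, the single markers with values, and the values of single noncoding transcripts, were chosen after their values were seen. Floors cover counting error only, because the reads carry no molecular identifiers.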

Additional observations from a re-analysis of the deposited data

How the results depend on the processing

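Each of the 9 genes was refitted under 19 alternatives in each of the 3 comparisons. Lifr, Il6st, Stat3 and Socs3 kept their withdrawal call and direction in all 19, and also their call for CK666 against +LIF2i cells. Other calls are given with the genes, and no gene that was called changed direction in any of these fits. Without the replicate block, 3509 genes were called on withdrawal, 0 for CK666 against withdrawn controls (1251 at an unadjusted p under 0.05) and 2966 for CK666 against +LIF2i cells. Of the 9 genes 0 were then called for CK666, and the blocked call of Socs3 and the withdrawal call of Jak1 were lost. Gbx2 in CK666 against +LIF2i cells turned to 0.14 without the block.

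For CK666 against withdrawn controls, 300 genes were called in all, against 1136 with DESeq2, 553 with limma-voom, 565 without a filter, 1367 in a fit of the 2 groups alone, 148 with length correction and 45 with limma on log2(TPM + 0.5). Of the 9 genes, DESeq2 and the fit of 2 groups called 2 (Socs3 and Jak1), and RLE scaling, length correction and the TPM fit called 0. Of the pathway genes DESeq2 called 3, limma-voom and length correction 1 each and the fit of 2 groups 6. The log2 fold change of Stat3, at 0.01, turned to -0.012 with DESeq2 and with RLE scaling, -0.00048 with limma-voom, -0.00066 with upper-quartile scaling, -0.017 with the stricter filter and -0.018 in the fit of 2 groups. In CK666 against +LIF2i cells Gbx2 turned to 0.13 with limma-voom, and Pim3 to -0.016 with length correction and -0.0066 in the TPM fit. The stricter motif was in 0 of the 9 genes' promoters.

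Leaving out a replicate number or 1 library gave these ranges. On withdrawal, 3099 to 6588 genes, 4 to 7 of the 9 genes and 12 to 28 pathway genes were called, and Pim1 lay at -0.62 to 0.10. For CK666 against withdrawn controls, 0 to 1811 genes, 0 to 2 of the 9 genes and 0 to 7 pathway genes were called, and Stat3 lay at -0.20 to 0.19. For CK666 against +LIF2i cells, 2413 to 6129 genes and 10 to 21 pathway genes were called, Pim1 lay at -0.035 to 0.42 and Gbx2 at -0.48 to 0.59. The cause of these shifts was not tested. All these fits hold fewer libraries, and the calls for CK666 against withdrawn controls numbered 1811 without replicate 1 and 0 without replicate 3. Depth limits the genes with few counts, among them Gbx2, Osm and Clcf1.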

Other observations

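Pim2, the third gene of the Pim kinase family and a member of the pathway list, differed widely between libraries of 1 group. It was at 8.16, 17.9 and 13.7 CPM in +LIF2i replicates 1, 2 and 3, at 655, 80.7 and 174 CPM in control -LIF2i libraries and at 297, 17.9 and 14.4 CPM with CK666. Every control -LIF2i library was above every +LIF2i library, and in each replicate the CK666 library was below its control. Neither difference was called by edgeR (log2 fold change 3.56, SE 1.13, adjusted p = 0.0528 on withdrawal, and -2.05, SE 1.04, adjusted p = 0.352 with CK666). Pim2 was chosen for mention after its values were seen.

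Pim1-204, a transcript of Pim1 that retains an intron, was at 6.28, 0 and 1.63 TPM in replicate 1 of the +LIF2i, control -LIF2i and CK666 groups and at 21.5 to 37.8 TPM in replicates 2 and 3. Pim3-202, a noncoding transcript of 522 bases, went the other way, with 54.0, 6.01 and 14.4 TPM in replicate 1 and 0 in replicates 2 and 3.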
